A study of Rattus norvegicus with 4 samples.

Results

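The voltage-gated and chloride ion channels are the genes for voltage-gated sodium, calcium and potassium channels, other potassium channels of the Kcn families, and CLC chloride channels, with their helper subunits. They were chosen by name: every probe whose gene name began with Kcn, Cacn, Clcn or with Scn and a digit was taken, other than Cacna1s and Cacng1. These names gave 131 genes on 162 probes, of 35658 genes on the array. Expression was measured in rat gracilis, a thin muscle of the inner thigh, in a study whose title concerns possible targets of microRNA-21. The injured muscles came from male Sprague-Dawley rats and had 4 h of ischemia, that is blocked blood flow, and then reperfusion for 1, 3, 7 or 14 days. The controls were sham-operated gracilis muscles of rats of the same strain and sex. Each day had 1 array with 2 channels, injured RNA in Cy5 and sham RNA in Cy3, with no dye swap. The labels do not say whether the 4 sham channels came from 1 muscle or several, or how many animals gave each RNA, and the ages of the rats were not given in the sources used here.

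Ion channels let a muscle fibre fire and relax. Sodium channels carry the action potential along the membrane, the calcium channel complex of the transverse tubules senses it and opens the calcium store, and potassium and chloride channels bring the membrane back to rest. Pore subunits form the path for the ion, and helper subunits (beta, alpha2-delta and gamma) set how many channels reach the membrane and how they open. Other members of the same families work in nerve, vessel wall and immune cells, which are also present in whole muscle.

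The finding rests on 8 genes that were low early after injury, and each was read by a 60-base probe of the array. The probes of the 6 described below are printed here, 5′ to 3′ as the array files give them, because every value of these genes is the brightness of these sequences. Positions are the rn4 coordinates in the array files, and the strand was read from the order of the coordinates, which matched the RefSeq strand for 7150 of 7517 genes (95.1%). Scn4b had 2 probes, of which 1 stayed at background. The exon or untranslated part that a probe matches was not determined here.

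Cacna2d1 (chr4:15139912-15139971, - strand): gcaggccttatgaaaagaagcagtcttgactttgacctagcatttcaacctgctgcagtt
Cacnb1 (chr10:86764289-86764348, - strand): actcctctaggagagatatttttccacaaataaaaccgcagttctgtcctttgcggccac
Kcnj11 (chr1:96615751-96615810, - strand): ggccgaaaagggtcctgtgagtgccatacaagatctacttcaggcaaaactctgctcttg
Kcnj12 (chr10:47214856-47214915, + strand): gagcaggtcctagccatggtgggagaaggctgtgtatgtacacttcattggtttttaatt
Scn3b (chr8:43253930-43253989, + strand): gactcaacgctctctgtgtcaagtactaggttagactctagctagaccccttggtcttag
Scn4b, bright probe (chr8:48106487-48106546, + strand): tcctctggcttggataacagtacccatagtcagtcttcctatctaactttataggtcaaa
Scn4b, dim probe (chr8:48100318-48100377, + strand): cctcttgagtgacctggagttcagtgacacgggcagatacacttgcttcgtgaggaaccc

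The 3 genes that were more than 2-fold higher on at least 1 day, and were not among those 8, were read by these probes.

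Cacnb3 (chr7:137394172-137394231, + strand): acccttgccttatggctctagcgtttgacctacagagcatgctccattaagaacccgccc
Kcnk13 (chr6:124175968-124176027, + strand): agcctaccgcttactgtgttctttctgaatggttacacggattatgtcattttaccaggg
Kcnn4 (chr1:79628697-79628756, + strand): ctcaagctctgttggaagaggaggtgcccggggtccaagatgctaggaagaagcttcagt

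On every array 41012 probes were read, of which 64.4% to 68.7% cleared the background by a wide margin (the scanner software's flag, here called well above background) in injured muscle, against 34.7% to 47.3% in sham muscle. Among 40 probes printed 10 times, the median SD of the log2 ratio was 0.035 to 0.072, which is the error between spots of 1 array and not between animals. With 1 array per day no test of a single day was possible. Genes at least 2-fold from sham were therefore counted and set beside the same share over all genes measured that day. Levels are normalised log2 intensities of 1 probe and are not compared between genes, and ratios are log2 of injured over sham. In whole muscle, fewer cells of a type and less RNA per cell cannot be told apart.

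Of the 131 genes, 90 were well above background in at least 1 channel on at least 1 day, 61 on all 4 days, and 41 on none. The numbers measured were 68 on day 1, 82 on day 3, 78 on day 7 and 79 on day 14. No probe of a member was saturated. Scn4a, the main sodium pore of adult skeletal muscle, Kcnj2, a strong inward rectifier, and the potassium pore Kcna7 were below background in both channels on all 4 days, so nothing can be said of their levels here. Clcn1, which carries most of the resting chloride current of muscle, was above background in the injured channel alone, with ratios of 0.21, -0.02, 0.19 and 0.14 on days 1, 3, 7 and 14.

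On day 1, 8 of the 68 measured channel genes (11.8%) were at least 2-fold lower in the injured muscle than in sham, beside 4.91% of all genes. On day 3, 8 of 82 (9.76%) were lower, beside 3.95% of all genes. They were the same 8 genes, among them Cacna2d1, Cacnb1, Kcnj11, Kcnj12, Scn3b and Scn4b, which is 11.8% of the 68 genes measured on both days, beside 3.39% of all genes. Higher by at least 2-fold were 1 member on day 1 (1.47%, beside 1.24% of all genes) and 2 on day 3 (2.44%, beside 2.47%). On day 7, 2 were higher (2.56%, beside 3.13%) and 2 lower (2.56%, beside 1.23%). On day 14, 1 was higher (1.27%, beside 3.14%) and 2 lower (2.53%, beside 1.57%). The median ratio of the members was 0.01, 0.03, 0.06 and 0.10 on days 1, 3, 7 and 14, beside 0.02, 0.03, 0.04 and 0.05 over all genes. With loess-normalised ratios, 79 of the 90 measured channel genes never reached 2-fold on a measured day. The same share over all genes was not counted. Only 43, 36, 32 and 44 members were well above background in both channels on days 1, 3, 7 and 14. For the others a small ratio does not show a level close to sham. Among genes well above background in both channels, 18.6% of 43 members were lower on day 1, beside 6.61% of all genes, and 22.2% of 36 on day 3, beside 6.42%.

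The counts of higher genes depended on the scaling. With the scanner software's deposited ratio, 10 members were higher and 12 lower on day 1, 13 higher and 11 lower on day 3, 17 higher and 7 lower on day 7, and 19 higher and 8 lower on day 14. Over all genes the deposited ratio put 12%, 15.4%, 17.3% and 17.2% higher and 8.53%, 7.42%, 8.05% and 6.42% lower on the 4 days. With arrays centred on their median, which moved the median of all genes to 0.37, 0.29, 0.27 and 0.27 on the 4 days, 7 were higher and 7 lower on day 1, 6 and 6 on day 3, and 7 higher and 1 lower on days 7 and 14. Over all genes it put 21.8%, 17.2%, 11.6% and 12.2% higher and 1.88%, 1.61%, 0.332% and 0.413% lower. All 8 low genes remained lower on days 1 and 3 with the deposited ratio, and 7 on day 1 and 6 on day 3 with median centring.

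**Figure D1:**
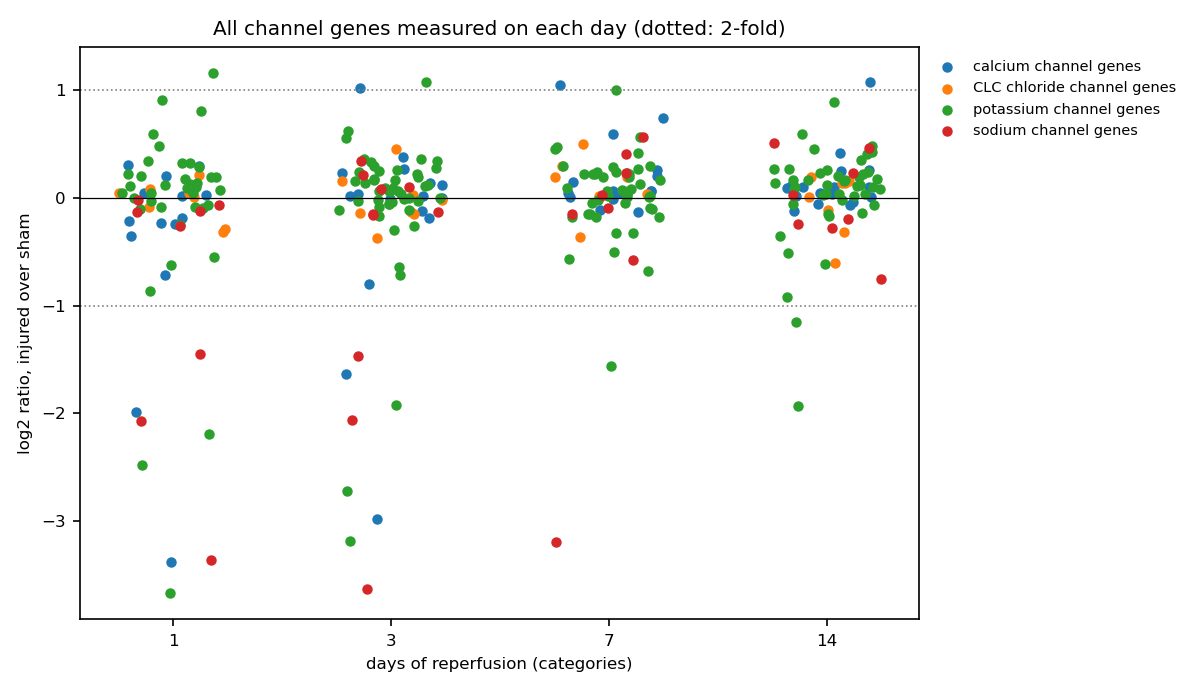
Log2 ratio of injured over sham muscle (vertical axis) for every channel gene well above background in at least 1 channel, by day of reperfusion (horizontal axis, spread sideways for legibility), coloured by the ion carried; dotted lines mark 2-fold. On days 1 and 3 the same 8 genes lie below the lower line, among them Cacna2d1 at -3.38 and Scn4b at -3.36 on day 1, while the median of all members is 0.01 on day 1 and 0.03 on day 3.

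The beta subunits of the sodium channel, small membrane proteins that sit beside the pore and tune its opening, included genes that were low early. Scn3b and Scn4b were at least 2-fold lower on days 1 and 3. Scn4b, the beta4 subunit, had injured levels of 7.58, 7.22, 7.83 and 11.52 on days 1, 3, 7 and 14, against sham levels of 10.94, 10.84, 11.03 and 11.01. It was 10.3-fold, 12.3-fold and 9.17-fold lower on the first 3 arrays and 1.42-fold higher on day 14. Among the 8 low genes it alone was still more than 4-fold lower on day 7, and its ratio changed by 3.71 between days 7 and 14. Its second probe was below background throughout and gives no value for this course. Scn3b, the beta3 subunit, had injured levels of 6.66, 6.53, 8.02 and 8.01, against sham levels of 8.74, 8.59, 8.60 and 8.77. All 4 injured levels of Scn3b lay below all 4 sham levels, with folds of 4.21, 4.16, 1.5 and 1.69. None of the 7 measured sodium pores reached 2-fold in either direction with loess-normalised ratios. Only 3, 2, 1 and 3 of them were above background in both channels on days 1, 3, 7 and 14. The muscle pore Scn4a was not measured, so these values do not show that the sodium pores were unchanged.

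Among the calcium channel members, 3 helper subunits reached 2-fold on at least 1 day with loess-normalised ratios. No member pore did, while Cacna1s, the muscle pore that the name rule leaves out, is given with the partner genes. Cacna2d1 encodes the alpha2-delta-1 subunit, an extracellular partner of the muscle calcium channel. The injured levels of Cacna2d1 were 10.24, 10.26, 13.93 and 13.70, against sham levels of 13.62, 13.24, 13.19 and 13.28. It was 10.4-fold lower on day 1 and 7.88-fold lower on day 3, and its ratios on days 7 and 14 were 0.74 and 0.42. The day 7 direction depended on the scaling: the deposited ratio of that day was -0.79. Cacnb1 encodes the beta1 subunit, which brings that channel to the membrane. Cacnb1 had injured levels of 7.21, 7.34, 9.26 and 9.10, against sham levels of 9.20, 8.98, 8.67 and 9.0. It was 3.98-fold and 3.12-fold lower on days 1 and 3, 1.51-fold higher on day 7 and 1.07-fold higher on day 14. A further beta subunit, Cacnb3, which is known from nerve, smooth muscle and T cells, had a different course. Injured levels of Cacnb3 were 7.28, 8.73, 8.45 and 8.54, against sham levels of 7.63, 7.71, 7.39 and 7.45. It was 2.03-fold, 2.08-fold and 2.12-fold higher on days 3, 7 and 14, just inside the threshold, and its injured levels of those days lay above all 4 sham levels. Against the mean of all 4 sham channels its ratio was 0.90 on day 7 and 0.99 on day 14, below 2-fold. Cacng6, a gamma subunit, had ratios of -0.72 and -0.80 on days 1 and 3 with the injured channel below background, so it was at least 1.65-fold and 1.74-fold lower. The 7 measured calcium pores had ratios between -0.21 and 0.38, among them Cacna1c, the pore of heart and smooth muscle, with 0.31, 0.27 and 0.10 on days 1, 3 and 14 from the injured channel alone. These sizes hold for the loess scaling: with the deposited ratio Cacna1c was at 1.48 on day 1 and 1.63 on day 3, and Cacna1h, a low-voltage-activated pore, was at -2.42 on day 7.

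Of the 38 voltage-gated potassium pores 22 were measured. Kcns3, a silent subunit that joins other potassium pores, had ratios of 0.91, 0.56, 0.22 and 0.11 with sham below background, and was at least 1.87-fold higher on day 1. Kcna3, the Kv1.3 channel of lymphocytes, had a ratio of 0.59 on day 1 with sham below background, while its other probe, also above background in 1 channel, had -0.10.

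The inward rectifiers hold the resting potential. Kcnj11 encodes Kir6.2, the pore of the ATP-sensitive potassium channel of muscle. Its injured levels were 6.88, 6.61, 9.08 and 9.57, against sham levels of 9.36, 9.33, 9.58 and 9.53. It was 5.59-fold and 6.59-fold lower on days 1 and 3, 1.42-fold lower on day 7 and 1.03-fold higher on day 14. Kcnj8, which encodes the related pore Kir6.1 known from vessels, stayed within 1.49-fold of sham, with ratios of -0.07, 0.12, 0.57 and 0.48. Kcnj12 encodes Kir2.2, a strong inward rectifier. Its injured levels were 7.03, 7.46, 10.67 and 10.08, against sham levels of 9.22, 9.38, 9.66 and 9.19. It was 4.57-fold and 3.79-fold lower on days 1 and 3 and 2.00-fold and 1.86-fold higher on days 7 and 14, and each of the 4 injured levels lay outside the sham range of 0.47. The day 7 value sat on the threshold, at a ratio of 1.00, and was 0.98 without background correction.

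**Figure D2:**
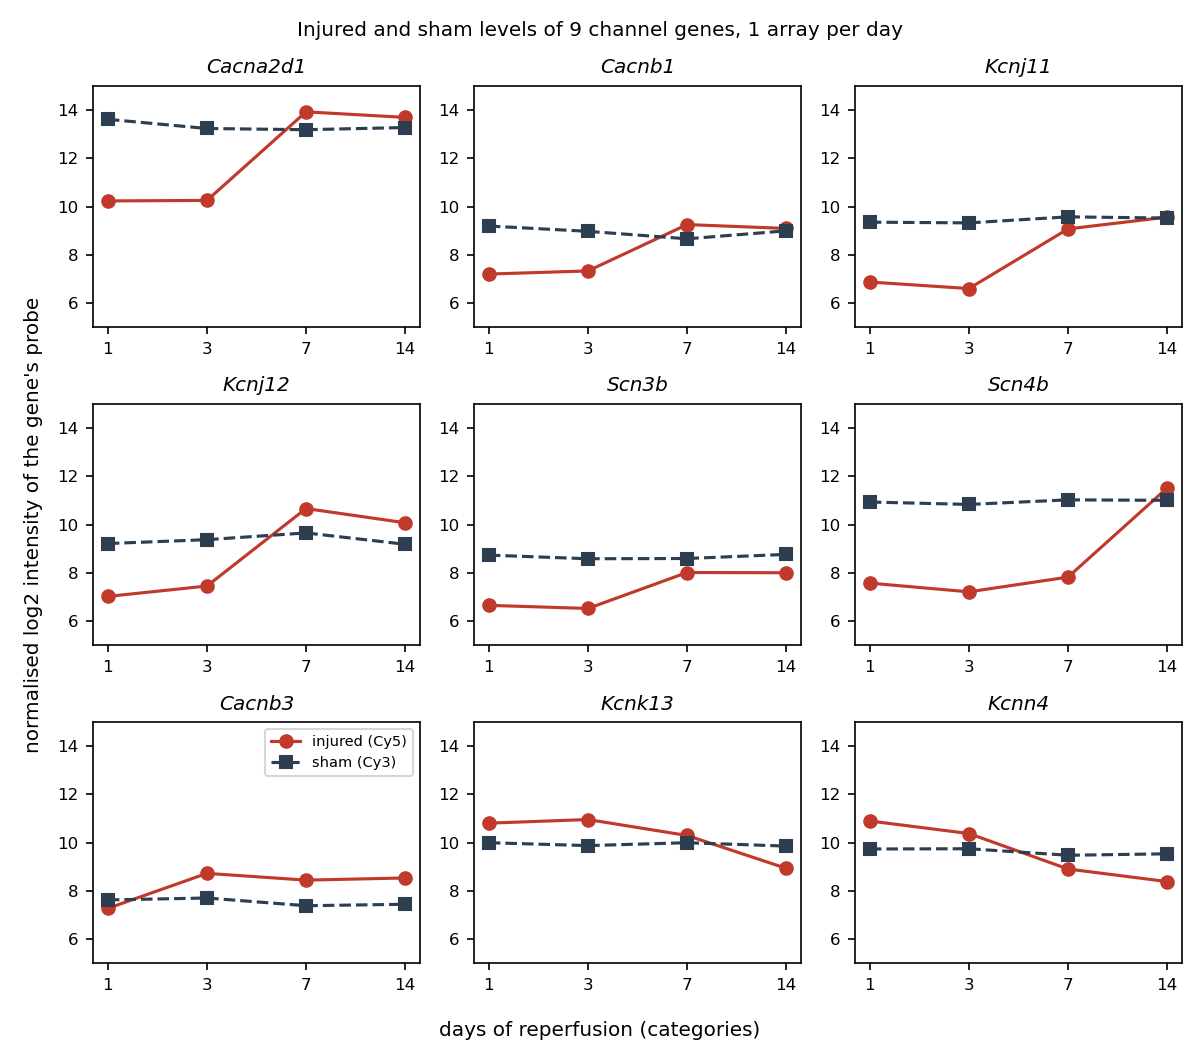
Normalised log2 intensity (vertical axis) of the probe of each of 9 channel genes on days 1, 3, 7 and 14 (horizontal axis), with the injured channel as circles and the sham channel of the same array as squares. The first 6 panels show genes low on days 1 and 3, where every injured point of those days lies below all 4 sham points, and the last 3 show Cacnb3, Kcnk13 and Kcnn4.

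Both calcium-activated and 2-pore potassium channels held a gene that was high early and low late. Kcnn4 encodes KCa3.1, a calcium-activated channel of red cells, lymphocytes and macrophages. Its injured levels were 10.90, 10.38, 8.91 and 8.39, against sham levels of 9.74, 9.75, 9.48 and 9.54. It was 2.23-fold higher on day 1 and 2.22-fold lower on day 14, and the injured levels of days 1 and 3 lay above all sham levels while those of days 7 and 14 lay below them. Kcnk13 encodes THIK-1, a background potassium channel known from microglia. Injured levels of Kcnk13 were 10.81, 10.96, 10.30 and 8.94, against sham levels of 10, 9.88, 10 and 9.86. It was 2.11-fold higher on day 3 and, just outside the threshold, 1.76-fold higher on day 1 and 1.89-fold lower on day 14. Kcnn3, the SK3 channel, and Kcnma1, the pore of the large-conductance channel of smooth muscle, had ratios below 0 on all 4 days without reaching 2-fold: Kcnn3 had ratios of -0.86, -0.72, -0.18 and -0.35, and Kcnma1 had -0.62, -0.64, -0.33 and -0.15. The sham channel of Kcnma1 was below background on day 7, so that day gives no fold. With the deposited ratio Kcnn3 was at -2.97 and -2.01 and Kcnma1 at -2.48 and -2.36 on days 1 and 3. With median centring Kcnn3 was at 0.08 on day 7 and Kcnma1 at 0.05 on day 14, so the direction of these smaller values depended on the scaling. On day 1 the injured channel of both genes was below background, which makes the folds at least 1.82 and at least 1.53. Kcnmb1, the smooth muscle partner of Kcnma1, had 0.00, 0.33, 0.30 and 0.22 with sham below background. Kcnk2, the stretch-sensitive channel TREK-1, had -0.55, 0.36, -0.68 and -0.51, and Kcnk6, the channel TWIK-2, had 0.19, 0.30, 0.24 and -0.17.

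Of the potassium helper subunits, 8 of 11 were measured and none reached 2-fold with loess-normalised ratios. Only 2, 2, 1 and 2 of them were above background in both channels on days 1, 3, 7 and 14. Kcne3, a single-pass subunit, had ratios of 0.48, -0.30, -0.33 and -0.61, and the cytoplasmic subunit Kcnab2 had 0.32, 0.06, 0.13 and 0.08. Of the CLC chloride channels 8 of 9 were measured, with loess-normalised ratios between -0.60 and 0.50. With the deposited ratio Clcn1 was at 1.78, 0.59, 1.88 and 1.56 and Clcn7 at 1.01, 1.32, 1.46 and 1.83 on days 1, 3, 7 and 14, so whether they pass 2-fold depended on the scaling. Clcn3, an exchanger of endosomes, had injured levels of 7.51, 7.82, 8.65 and 8.02, against sham levels of 7.83, 7.96, 8.34 and 7.89. The endosomal Clcn5 had ratios of 0.05, 0.45, 0.04 and -0.32, and the lysosomal Clcn7 had 0.08, 0.16, 0.19 and 0.16 from the injured channel alone. With 1 array per day these values do not show that the CLC genes were unchanged.

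With loess-normalised ratios, most 2-fold changes between days came between days 3 and 7. These counts depended on the scaling, as given further below. From day 1 to day 3, 1 of 68 channel genes changed its ratio upward by at least 2-fold, Cacnb3 by 1.37 (1 gene beside 3.1% of all genes), and none downward (beside 1.66%). From day 3 to day 7, 7 of 73 went up (beside 4.85% of all genes) and 2 went down (beside 2.23%). The 7 were all among the 8 low genes and included Cacna2d1 by 3.72, Kcnj12 by 2.92, Cacnb1 by 2.23, Kcnj11 by 2.22 and Scn3b by 1.48. Kcnn4 and Kcnk2 had differences of -1.20 and -1.04. From day 7 to day 14, Scn4b went up by 3.71 (1 of 72, beside 1.82% of all genes) and Kcnk13 changed by -1.21 (1 of 72, beside 1.24%). The median ratio of the 8 genes was -2.34, -2.39, -0.29 and 0.07 on days 1, 3, 7 and 14, a course that the choice of the 8 by days 1 and 3 fixes in part. The day 14 array was scanned in another session than the other 3, and scan and day cannot be told apart.

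Markers of the adult muscle fibre were low on days 1 and 3, the days by which the 8 genes were picked. All 9 of the 10 listed fibre markers on the array (among them Ckm, Acta1, Myh4 and Pvalb) were at least 2-fold lower on days 1 and 3, with medians of -3.15, -4.24, -0.50 and 1.1 on the 4 days. Later the markers went both ways: 1 was at least 2-fold higher and 2 lower on day 7, and 5 were higher and 1 lower on day 14. All of these markers were above background in both channels on every array; Ckm, Myh7, Tnni2 and Actn3 were saturated in a channel on some arrays, so their ratios there are bounds. The summed log2 level of the list spanned 14.76 to 18.38 in the injured channels, against 17.96 to 19.00 in the sham channels. Subtracting the fibre median left 5 of the 8 channel genes above it on day 1, all 8 on day 3 (by 0.62 for Scn4b and 2.60 for Cacnb1), 4 on day 7 and 0 on day 14. The difference from the fibre median was -2.69 for Scn4b on day 7. Among the markers, the slow myosin Myh7 was low on every day, at -4.09, -4.24, -3.99 and -2.66, and Pvalb, a calcium buffer of fast fibres, stayed low until day 7, at -3.30, -5.18, -3.38 and 2.37; these 2 were picked after their values were seen. The part of the fibre markers' course in that of the channel genes was not tested. Regenerating muscle markers had medians of -3.08, -0.38, 1.88 and 0.75 over 5 genes, but these genes went both ways. On day 3, 1 was at least 2-fold higher and 2 lower, from -3.83 for Actc1 to 1.95 for Myod1. On day 14, 2 were higher and 1 lower, from -1.22 for Myog to 4.35 for Myh3.

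**Figure D3:**
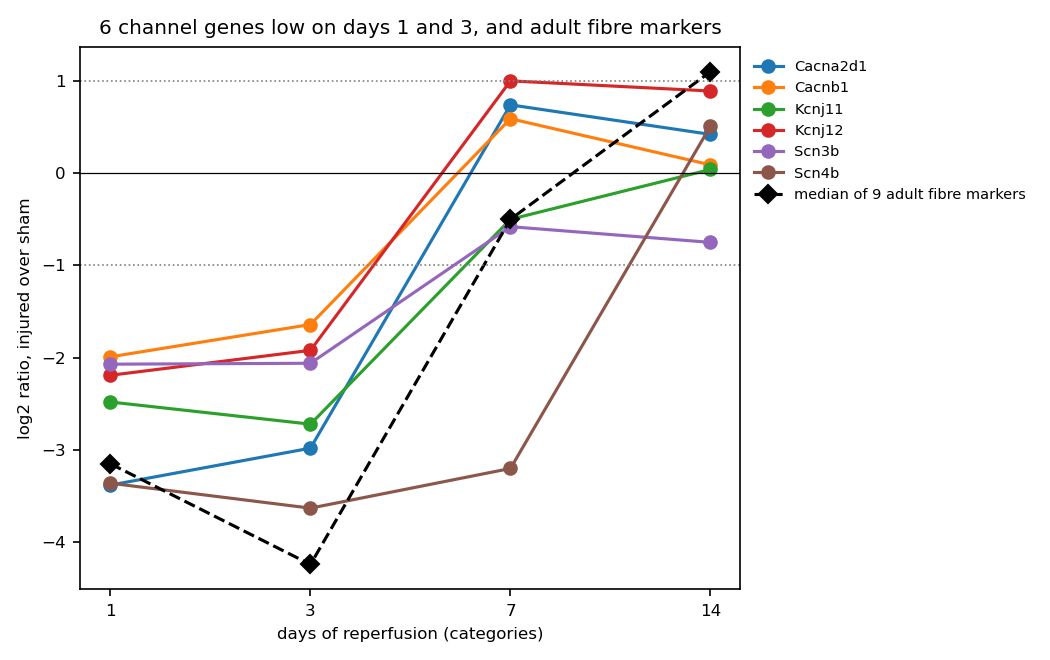
Log2 ratio of injured over sham (vertical axis) by day of reperfusion (horizontal axis) for 6 genes low on days 1 and 3 and, dashed with diamonds, the median of 9 adult fibre markers. Of the 6 lines, 5 are at least 2-fold higher on day 7 than on day 3; Scn4b is still at -3.20 on day 7 while the fibre median is -0.50.

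Markers of other cells are given beside Kcnn4, Kcnk13 and Cacnb3. The neutrophil list (5 genes) had medians of 2.50, -0.20, -0.22 and -0.81, and 3 of the 5 were at least 2-fold higher on day 1; its summed log2 level ran between 8.87 and 13.64 in injured and between 10.80 and 11.33 in sham channels, and Mpo, the granule enzyme, was below background in every sham channel with ratios of -0.06 to -0.18. The macrophage list (6 of 7 genes on the array) had -0.02, 0.56, 1.35 and 0.54, but its genes went both ways, with Cd163 at -1.88, -1.95 and -2.50 and C1qa at 1.40, 3.55 and 2.91 on days 3, 7 and 14. Its sums were 13.59 to 15.78 in injured and 13.42 to 13.68 in sham channels. The T cell list (5 of 6) had 0.09, 0.18, 1.27 and 0.38, with Cd8a at -1.88 and Cd3g at 3.44 on day 14 and sums of 10.38 to 12.44 in injured and 11.07 to 11.29 in sham channels. The fibroblast list (5 genes) had -0.69, 1.61, 2.66 and 1.96, with sums of 14.05 to 16.90 in injured and 14.62 to 15.75 in sham channels. Smooth muscle and pericyte markers (5 measured of the 6 on the array) had -1.07, 0.18, 0.38 and 0.36, between -3.42 and 0.28 on day 1. Des, which skeletal fibres also express, was the lowest of them on day 1, at -3.42, with levels of 11.23 in injured and 14.65 in sham muscle that made up most of the list's sum. The sums of the list were 12.04 to 14.50 in injured and 14.21 to 14.83 in sham channels. Endothelial markers (5 of 6 genes on the array) had 0.06, 0.16, 0.25 and 0.22. Of them Kdr alone passed 2-fold, at 1.72 on day 7 and 1.37 on day 14. Nerve and Schwann cell markers (7 of 8 on the array) had -0.15, 0.01, 0.08 and 0.41, and none measured passed 2-fold. The part of these cells in the values of Kcnn4, Kcnk13 and Cacnb3 was not tested.

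**Figure D4:**
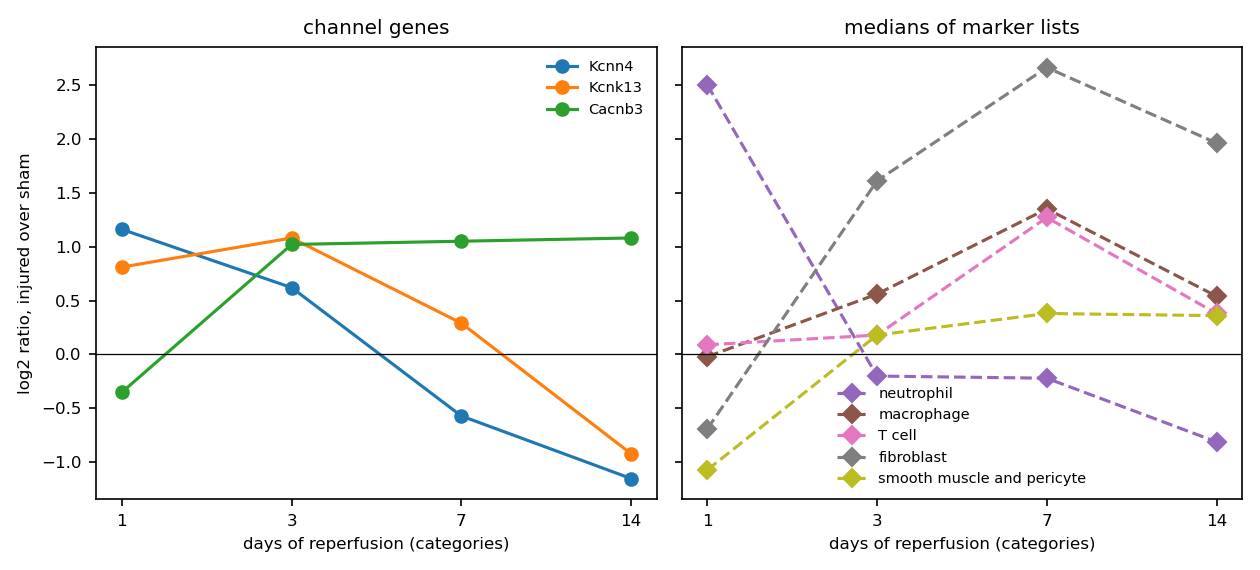
Log2 ratio of injured over sham (vertical axes) by day of reperfusion (horizontal axes): on the left the channel genes Kcnn4, Kcnk13 and Cacnb3, on the right the medians of marker lists of 5 other cell types. Kcnn4 goes down from day to day, from 1.16 on day 1 to -1.15 on day 14, and Cacnb3 stays near 1 on days 3, 7 and 14.

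Genes that work with these channels but are not of the families were read from a list of 26 partners, 21 of them on the array. At least 2-fold lower were 7 of 16 measured on day 1 and 6 of 16 on day 3. On days 7 and 14 it was 1 of 19 each, and none was higher on any day. Of all genes, 4.91%, 3.95%, 1.23% and 1.57% were lower on the 4 days. Higher were 1.24%, 2.47%, 3.13% and 3.14% of all genes. The list holds Cacna1s and Cacng1, which the name rule leaves out of the members. Both count among the lower partners of days 1 and 3. The median ratio of the list was -0.53, -0.13, 0.14 and 0.28 on the 4 days. Cacna1s, the pore of the muscle calcium channel that Cacna2d1 and Cacnb1 accompany, had ratios of -3.45, -4.69, 0.11 and 0.38, and its gamma subunit Cacng1 had -2.47, -2.56, 0.34 and 0.15. Stac3, which carries that channel to the membrane, had -3.89, -3.91, 0.29 and 0.71, and Ryr1, the release channel of the calcium store, had -3.37, -3.56, 0.31 and 0.96. All 4 were more than 2-fold lower on days 1 and 3 and within 2-fold of sham on days 7 and 14, as were Cacna2d1 and Cacnb1. Abcc9, the sulfonylurea receptor that pairs with Kir6 pores, had -1.07, -1.24, 0.72 and 0.79, a smaller early difference than that of Kcnj11. Fgf13, which binds sodium channels, had -2.91, -0.68, 0.95 and 0.93. Rrad, a small GTPase that binds calcium channel beta subunits, was the one partner low throughout, with -2.94, -2.75, -2.68 and -2.49. Of 7 chloride channel genes outside the CLC family on the array, 4, 5, 6 and 4 were measured on the 4 days. Among those measured Clic5 alone passed 2-fold, with -2.95, -3.20, -2.21 and -0.73. Of the 4 Hcn pacemaker channels, 3 were measured on days 1, 3 and 7 and 4 on day 14, and none passed 2-fold.

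Taken over all 4 arrays as replicates of injury, no channel gene passed the test. Of 61 members measured on every array, limma found 0 at an adjusted p under 0.05 in either direction, beside 0.0244% of 20529 genes higher and 0.156% lower. At an unadjusted p under 0.05 there were 11 members, 5 higher and 6 lower (18% of 61, beside 21.8% of all genes). The 4 arrays are different days, so this test treats the time course as error, and the labels do not show that the sham RNAs were separate samples.

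Promoters were looked up in RefSeq (GRCr8; 250 bases before to 50 after the start), and 2 of the 8 low genes, Scn4b and Cacna2d1, had a window there. That of Scn4b is printed because this gene had the largest change of any member between days 7 and 14, with the E-box CAGCTG, a motif bound by muscle transcription factors, in capitals.

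Scn4b promoter (chr8:54343623-54343922, + strand): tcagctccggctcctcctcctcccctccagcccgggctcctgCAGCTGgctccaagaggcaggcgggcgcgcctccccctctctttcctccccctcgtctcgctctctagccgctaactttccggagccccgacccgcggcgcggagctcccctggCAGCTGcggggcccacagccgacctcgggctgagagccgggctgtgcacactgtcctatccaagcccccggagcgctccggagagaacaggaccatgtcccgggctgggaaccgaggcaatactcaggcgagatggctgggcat

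It held CAGCTG at 2 places, and 15.1% of 33469 windows of this length held that motif on either strand. The 3 windows of Cacna2d1 held no CAGCTG. Neither gene's windows held CACCTG (18.8% of all windows), a MEF2 site (0.565%) or a CArG box (1.64%). Of the 24 named genes with a window, Cacnb3, Kcna5, Kcnj2, Kcns3 and Scn4a also had one with CAGCTG, and none of these was among the 8 low genes. A match of letters does not show binding.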

How the data were processed

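Agilent rat arrays with 2 colours, 1 for each of the 4 reperfusion times, were hybridised with injured RNA in Cy5 and sham RNA in Cy3 per the labels. The scanner software was Feature Extraction, version 10.5.1.1 per the file headers but 9.5.3 per the submitters' processing notes. Each deposited spot intensity is mean brightness with the median of its local background, not normalised. The deposited log10 ratio of red over green is background-subtracted and dye-normalised per the file headers, and the deposited value table holds it as log2, within 0.005 over 40972 probes, with a median of 0 in every column.

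From the intensities, ratios were computed with R 4.3.3 and limma 3.58.1: normexp background correction with an offset of 50, then loess within each array, with control and outlier spots given no weight. Channel levels came from quantile normalisation of mean brightness. Spots of a probe were averaged and the brightest probe stood for its gene; of 24 members with several probes, 0 had probes past 2-fold in opposite directions. A gene was measured if well above background in at least 1 channel. A fold with 1 channel at background is given as a bound under the loess scaling. The dim channel was set to the higher of its own signal and the lowest signal well above background, which is no detection limit. Such a bound can equal the plain fold. Accessions matched 136 of 162 member probes to RefSeq, 130 with the same symbol.

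Days have 1 array, so 2-fold counts carry no test. The mean over 4 arrays was tested against 0 with limma's lmFit and eBayes, adjusted over 20529 genes. The steps were tested on simulated data. Days 1, 3 and 7 were scanned in 1 session and day 14 in another, so scan and day cannot be told apart. Named genes were the 4 highest and 4 lowest members of each day, members past 2-fold on at least 2 days, and a fixed set of channels known from muscle, vessel and immune cells. Some of them are counted but not reported by name here. Partners and markers singled out were chosen after their values were seen. Members and lists were chosen with earlier results of these data known.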

Additional observations from a re-analysis of the deposited data

Results flagged for a closer look

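Kcnj12 and Kcnn4 drew attention because their difference from sham had opposite directions at different days, at least 2-fold each way. Kcnj12, the inward rectifier Kir2.2, had its lowest ratio of -2.19 on day 1 and its highest of 1.00 on day 7. Kcnn4, the calcium-activated channel KCa3.1, had its highest ratio of 1.16 on day 1 and its lowest of -1.15 on day 14. Each day is 1 array, and these differences between days were not tested. Among 19 named genes above background in all 4 sham channels, 0 had a sham level standing apart from the other 3 (chance alone gives about 1 in 20). With 4 levels per gene this check can miss a deviating level. The labels also do not show that the sham RNAs were separate samples, so it does not show a steady baseline between animals.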

How the results depend on the processing

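The 26 named values past 2-fold kept their direction under all 8 alternatives run for them. They remained past 2-fold in 26 with the deposited ratio, its value table, the filter on both channels and the median over probes, in 25 without background correction, in 24 against the mean of the sham channels (all 4, or without day 7, added after seeing the data), and in 21 with median centring. The filter on both channels and the median over probes could not change these values. Each of these genes was above background in both channels on every array and had 1 probe above background. The value table repeats the deposited ratio, so it is no separate check. Smaller values could turn: with median centring Cacnb3 was at 0.28 and Clcn3 at 0.39 on day 1, and Kcnn4 at 0.08 and Kcnj11 at 0.16 on day 7, and with the deposited ratio and its table Cacna2d1 was at -0.79 on day 7. Counts of members at least 2-fold higher were, on days 1, 3, 7 and 14, 10, 13, 17 and 19 with the deposited ratio and 7, 6, 7 and 7 with median centring. Lower on days 7 and 14 were 7 and 8 with the deposited ratio and 1 and 1 with median centring. Against the mean of the 4 sham channels 2 were higher on day 1, 1 on day 7 and 0 on day 14, and without the day 7 sham 0 on day 14. Without background correction 1 was higher on day 7. At 1.5-fold 4 were higher on day 1, 4 on day 7 and 3 on day 14, and 6 lower on day 14. At 4-fold 0 were higher on any day, and lower were 5 on day 3, 1 on day 7 and 0 on day 14. Between days, the deposited ratio gave 6 up and 5 down from day 1 to 3, 14 and 5 from day 3 to 7, and 11 and 7 from day 7 to 14. Median centring gave 2 up and 1 down from day 1 to 3. Both sham means gave 1 down from day 1 to 3, 1 down from day 3 to 7, and 2 up and 2 down from day 7 to 14, and no background correction gave 1 down from day 3 to 7. For the mean over 4 arrays, the deposited ratio called 3 higher (Clcn1, Clcn7 and Kcnj14) and 1 lower, beside 2.93% and 0.872% of all genes, and median centring 20 higher and 1 lower, beside 40.9% and 0.643%. Leaving out each array gave 0 to 1 lower and 0 higher; without day 14 Scn4b was lower (mean -3.39, limma adjusted p = 0.0426), beside 0.039% of all genes. The cause of these shifts was not tested. No paired analysis was possible because each day has a single array that already sets 1 injured against 1 sham sample. Precision is limited by 1 array per day and by the sham channel, in which fewer probes stood above background than in the injured channel, so a gene dim in both channels could not be judged.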

Other observations

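RefSeq accessions gave 5 more probes a current channel symbol under which the array does not name them, and they were not among the members. Kcnk5, an acid-sensitive 2-pore potassium channel listed under an older locus name, had injured levels of 7.29, 9.12, 8.83 and 8.66 on days 1, 3, 7 and 14, against sham levels of 7.49, 7.60, 7.79 and 7.57. It was above background in both channels on every array, with ratios of -0.20, 1.53, 1.04 and 1.1, and on days 3, 7 and 14 the injured level lay above all 4 sham levels. A further probe of Kcnj3, a G protein-gated inward rectifier, had ratios of -0.48, 0.26, 0.76 and 0.70. The probes of Kcnip2, Kcnip3 and Kcnk18 were at or near background on most arrays.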
